A study of Mus musculus with 2 samples.

Results

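The granins are a family of acidic secretory proteins, and transcripts of 7 granin genes (Chga, Chgb, Scg2, Scg3, Scg5, Vgf and Pcsk1n) were followed in pancreatic islet cells from wild-type mice and mice fed a high-fat diet. The 7 genes were taken by symbol from the 31053 genes of the deposited count tables, and the rule used their names and no threshold on a measured value. Droplet-based single-cell RNA sequencing was available for 1 library of wild-type (WT) mice and 1 library of mice fed a high-fat diet (HFD), all of them male C57/B6 mice aged 16 weeks. HFD mice received a diet with 60% of its calories as fat for 10 weeks from the age of 6 weeks, and the labels name no diet for WT mice. Each library was made from islets that had been pooled from 4 mice, so single mice cannot be told apart. Each group thus had 1 library, and diet, islet preparation and library cannot be told apart in any comparison.

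Granins are sorted into dense-core granules together with the hormones of endocrine cells and neurons. The chromogranins and secretogranins aggregate at the low pH and high calcium of the trans-Golgi network, where they take part in granule formation, and several of them are cut into bioactive peptides. In the islet, insulin, glucagon and somatostatin are stored in such granules in β, α and δ cells respectively. Another pair acts on the enzymes that cut prohormones: the product of Pcsk1n (proSAAS) binds and inhibits the convertase made from Pcsk1, and the product of Scg5 is a chaperone of the convertase made from Pcsk2.

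The 7 genes lie apart from each other in the mouse genome (GRCm38, the build of the authors' mm10 index; GENCODE vM21 gene models). Chga was at chr12:102554969-102565028 (+ strand) and Chgb at chr2:132781278-132795079 (+). Scg2 was at chr1:79434669-79440120 (− strand), Scg3 at chr9:75643189-75684056 (−) and Scg5 at chr2:113776362-113829121 (−). Vgf was at chr5:137026392-137033351 (+) and Pcsk1n at chrX:7919822-7924410 (+). The Pcsk1n model overlapped the gene Eras on the other strand.

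Promoter windows of RefSeq (GRCm38.p6), from 250 bases before to 50 after the annotated start, were found for 6 of the 7 genes and not for Vgf. The cAMP response element TGACGTCA and its shorter form TGACG, which the longer form contains, were searched on both strands, and stretches of 30 bases around the match are shown because they set apart the members that carry the complete element. Capitals mark the match, and each stretch runs 5′ to 3′ along the gene's strand.

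Chgb: gggctgctccgTGACGTCAgggctgagcga

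Scg2: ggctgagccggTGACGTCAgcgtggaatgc

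Chga: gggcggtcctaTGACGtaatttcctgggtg

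Scg3: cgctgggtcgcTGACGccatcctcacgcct

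Scg5: aaggaggtaaaTGACGttcataggggtcga

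The stretches are chr2:132781559-132781588 (+) for Chgb, chr1:79440076-79440105 (−) for Scg2, chr12:102554886-102554915 (+) for Chga, chr9:75684068-75684097 (−) for Scg3 and chr2:113829248-113829277 (−) for Scg5. The first base of the match lay 72 bases before the RefSeq start in Chgb, 68 in Scg2, 44 in Chga, 30 in Scg3 and 175 in Scg5. In Chgb and Scg2 the stretch fell within an exon of the longer GENCODE gene model, and in the other 3 it fell outside gene models. The complete element TGACGTCA was present in 2 of the 6 windows, against 1.79% of all 32851 promoter windows. The shorter form was present in 5 of 6, against 20.8% of all windows, and was not found in the Pcsk1n window. TATAAA was present in 1 of 6 (Chga, after the RefSeq start), against 13.6% of all windows. These are matches of letters and not measured binding sites.

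The WT library held 73843674 UMIs over 3895 barcodes and the HFD library 94375138 UMIs over 8951 barcodes, where a UMI (unique molecular identifier) counts 1 captured transcript. After filtering, 2493 WT cells and 6673 HFD cells were kept. The libraries shared 9 barcode sequences. Cells were named from clusters made without the 7 granins and without Ins1, Ins2, Gcg, Sst and Ppy. β-like cells numbered 1706 in WT and 4579 in HFD, α-like cells 48 and 162, and δ-like cells 56 and 123. WT β-like cells were deeper, with a median of 29117 UMIs against 12527 in HFD. Of the defining markers, Irx2 was at 77.2 (WT) and 79.1 (HFD) CPM in α-like cells and at 1.04 and 0.768 in β-like cells, and Hhex was at 226.7 and 190.6 in δ-like cells and at 0.0943 and 0.256 in β-like cells. The δ-like class also held much Ppy, at 7.73% (WT) and 6.49% (HFD) of its non-insulin UMIs, and the summed level of its 5 γ markers was 143567 and 124965, against 130331 and 149567 for its 7 δ markers. A cluster led by Ghrl, the ghrelin gene, gave 17 of the 56 WT and 69 of the 123 HFD δ-like cells and held 10.4% insulin UMIs. The δ-like class may therefore hold ghrelin cells, and its levels relative to β-like cells were not repeated without that cluster. Clusters without a name held 11.9% of WT cells and 18.4% of HFD cells.

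Because the insulin genes Ins1 and Ins2 held 61.6% of the UMIs of WT β-like cells and 57.6% of those of HFD β-like cells, levels are given as CPM of non-insulin UMIs, which is the share of a gene among the UMIs of all genes but Ins1 and Ins2, scaled to 1000000. Values in brackets are exact 95% intervals, and all intervals cover counting error only, not the spread between mice or preparations. No test was possible with 1 library per group. In this 3′ tag assay a level is not divided by transcript length, and levels are compared for 1 gene across cell classes or libraries.

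Granin transcripts were abundant in all islet endocrine cells, and their share of non-insulin UMIs was highest in β-like cells. The 7 genes together held 2.43% of non-insulin UMIs in WT β-like cells and 2.36% in HFD β-like cells. In α-like cells they held 1.38% (WT) and 1.18% (HFD), and in δ-like cells 1.53% and 1.57%. γ-like cells, which make pancreatic polypeptide and numbered only 16 and 33, held 0.853% and 0.736%. Endothelial-like cells, which should lack granins, held 0.0450% and 0.0499%. Among all UMIs, insulin included, the order was another: β-like cells had 0.933% and 0.9997%, α-like cells 1.37% and 1.17%, and δ-like cells 1.41% and 1.49%.

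**Figure D1:**
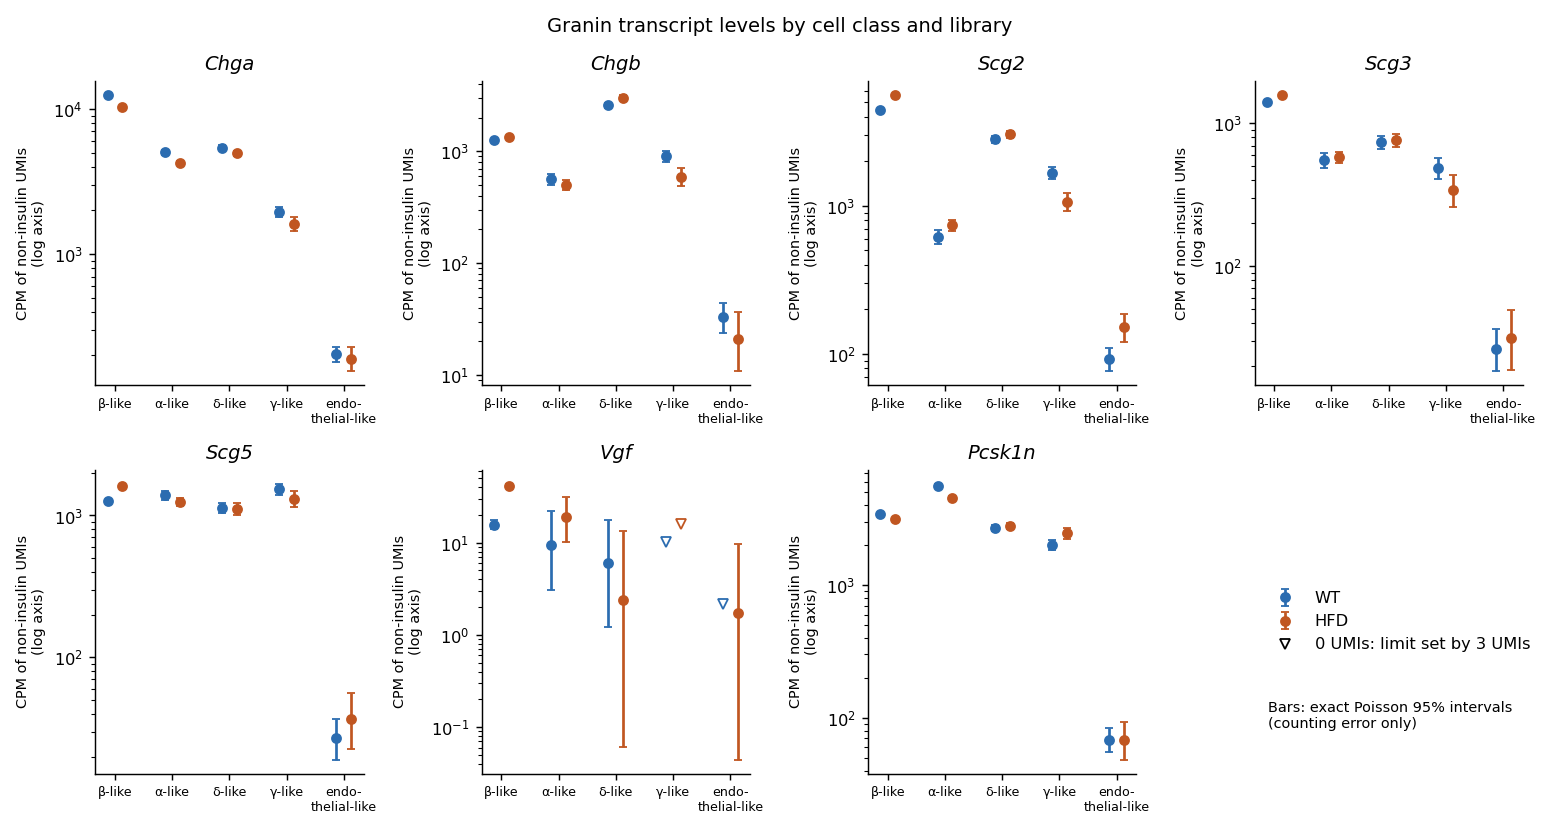
Level of each granin (CPM of non-insulin UMIs, log axis, 1 panel per gene with its own scale) in β-like, α-like, δ-like, γ-like and endothelial-like cells of the WT (blue) and HFD (orange) libraries, with exact Poisson 95% intervals; open triangles mark the limit that 3 UMIs would set where a class had 0. Chga, Scg2 and Scg3 were highest in β-like cells of both libraries, Chgb in δ-like cells and Pcsk1n in α-like cells.

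Chromogranin A, encoded by Chga, is the precursor of pancreastatin and other peptides, and Chga took the largest share of granin UMIs in β-like cells. Its level was 12458 (12411 to 12506) in WT and 10293 (10255 to 10331) in HFD β-like cells. In α-like cells it was 5021 (4833 to 5216) and 4240 (4093 to 4390), and in δ-like cells 5412 (5211 to 5619) and 4946 (4734 to 5165). The level in α-like cells was therefore 2.48-fold (WT) and 2.43-fold (HFD) lower than in β-like cells, and that in δ-like cells was 2.30-fold and 2.08-fold lower. The counting intervals of α-like and δ-like cells overlapped in WT but not in HFD. γ-like cells were lowest of the 4 endocrine classes, at 1943 and 1613.

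The δ-like mean of Chga rested on a small part of the cells. With every cell thinned to 2000 non-insulin UMIs, the median δ-like cell held 7 Chga UMIs in WT and 6 in HFD, while the mean was 8.89 and 9.58. The variance was 9.03 (WT) and 14.4 (HFD) times the mean in δ-like cells, against 5.25 and 5.48 in β-like cells and 2.52 and 2.42 in α-like cells. δ-like cells also held insulin transcripts, at 8.0% (WT) and 4.94% (HFD) of their UMIs. When only cells led by their own hormone gene, and with under 10% of their UMIs from any other islet hormone, were taken, the log2 ratio of δ-like to β-like cells went from −1.20 to −1.78 in WT and from −1.06 to −1.63 in HFD.

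Chromogranin B, a second major matrix protein of the granule, was highest in δ-like cells instead. Chgb was at 2571 (2433 to 2715) in WT and 3018 (2853 to 3190) in HFD δ-like cells. β-like cells were at 1249 (1234 to 1264) and 1333 (1319 to 1347), and α-like cells at 561.1 (499.2 to 628.5) and 501.6 (452.1 to 555.2). The δ-like level was thus 2.06-fold (WT) and 2.26-fold (HFD) higher than the β-like level, and the α-like level 2.23-fold and 2.66-fold lower, with no overlap of the counting intervals between the 3 classes. At clustering resolution 2, where 1 of the α-like clusters held 18.2% insulin UMIs, the α-like to β-like log2 ratio of Chgb was −0.38 in WT, no longer past 1.5-fold, and −0.68 in HFD, against −1.15 and −1.41. Leaving out cells of mixed hormones kept this order, with δ-like to β-like log2 ratios of 1.14 and 1.33.

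Secretogranin II, the precursor of secretoneurin, showed the widest gap between β-like and α-like cells among the 6 members that could be compared. Scg2 was at 4437 (4409 to 4466) in WT and 5603 (5575 to 5632) in HFD β-like cells. In α-like cells it was at 619.4 (554.3 to 690.1) and 740.4 (679.9 to 804.8), which was 7.16-fold and 7.57-fold lower. At clustering resolution 2 the log2 ratio in WT was −2.04 instead of −2.84. δ-like cells lay between them at 2813 (2669 to 2964) and 3043 (2877 to 3215), and γ-like cells at 1673 and 1066. After thinning, 99.9% of WT and 100% of HFD β-like cells held an Scg2 UMI, against 66.7% and 72.0% of α-like cells and 6.37% and 11.6% of endothelial-like cells. Median depths before thinning were 30462 and 12650 UMIs in β-like, 10318 and 4276 in α-like, and 6811 and 4399 in endothelial-like cells.

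Secretogranin III, which binds chromogranin A and the granule membrane, followed Chga in its order. Scg3 was at 1408 (WT) and 1571 (HFD) in β-like cells, at 737.6 and 760.0 in δ-like cells and at 551.7 and 578.1 in α-like cells. The α-like level was 2.55-fold and 2.72-fold lower than the β-like level.

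Scg5 was the most even member across the endocrine classes among non-insulin UMIs. Its level was 1257 (WT) and 1601 (HFD) in β-like cells, 1389 and 1247 in α-like cells, 1123 and 1112 in δ-like cells, and 1531 and 1305 in γ-like cells. Pcsk2, whose product the Scg5 protein assists, was at 2755 and 2728 in β-like cells, 3611 and 2701 in α-like cells, and 1994 and 1822 in δ-like cells. No α-like or δ-like level of Scg5 was 1.5-fold away from the β-like level on this scale. With all UMIs as the denominator all 4 were, with log2 ratios of 1.52 (WT) and 0.87 (HFD) in α-like cells and 1.10 and 0.64 in δ-like cells.

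Pcsk1n was the member with its highest level in α-like cells. It was at 5601 (5402 to 5806) in WT and 4497 (4346 to 4652) in HFD α-like cells, against 3448 (3423 to 3473) and 3154 (3133 to 3175) in β-like cells. The α-like level was 1.62-fold (WT) and 1.43-fold (HFD) higher. δ-like cells were at 2686 and 2784. Its target enzyme gene had another distribution: Pcsk1 was at 375.5 and 370.0 in β-like cells and at 73.6 and 53.1 in δ-like cells, while α-like cells held 0 UMIs in WT, which allows up to 5.65 CPM, and 3 UMIs in HFD.

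Vgf encodes the precursor of several neuropeptides and gave the fewest granin UMIs in each endocrine class. It was at 15.6 (14.0 to 17.4) in WT and 41.2 (38.8 to 43.7) in HFD β-like cells, from 331 and 1126 UMIs. In α-like cells it was at 9.41 (3.06 to 22.0) and 18.8 (10.3 to 31.5), from 5 and 14 UMIs. δ-like cells held 3 and 1 UMIs. γ-like cells held 0 UMIs in both libraries, which allows up to 10.1 and 15.9 CPM. Of WT endothelial-like cells none held a UMI, and HFD endothelial-like cells held 1 UMI.

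Counted at 1.5-fold, among genes with a mean level of at least 100 CPM, 4 of the 6 members tested (all but Vgf) were lower in α-like than in β-like WT cells (Chga, Chgb, Scg2 and Scg3), and 51.3% of all genes tested were. In HFD 4 of 6 were lower as well, against 53.4% of all genes. Higher in α-like cells was 1 of 6 in WT (Pcsk1n), against 5.18% of all genes, and 0 of 6 in HFD, against 4.84%. In δ-like cells 3 of 6 were lower in WT (Chga, Scg2 and Scg3), against 37.8%, and 3 of 6 in HFD, against 34.6%. The Scg2 call in WT was lost without hormone and mitochondrial genes in the denominator, where the log2 ratio was −0.35. Higher was 1 of 6 in each library (Chgb), against 5.61% in WT and 9.87% in HFD. In these cells Gcg held 31.5% and 33.7% of the non-insulin UMIs of α-like cells, and Sst 12.5% and 14.4% of those of δ-like cells, and these UMIs are part of the denominator. With hormone and mitochondrial genes left out of the denominator, Scg2 was 5.45-fold and 5.76-fold lower in α-like than in β-like cells, Pcsk1n 2.13-fold and 1.87-fold higher in α-like cells, and Chgb 2.55-fold and 2.62-fold higher in δ-like cells.

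**Figure D2:**
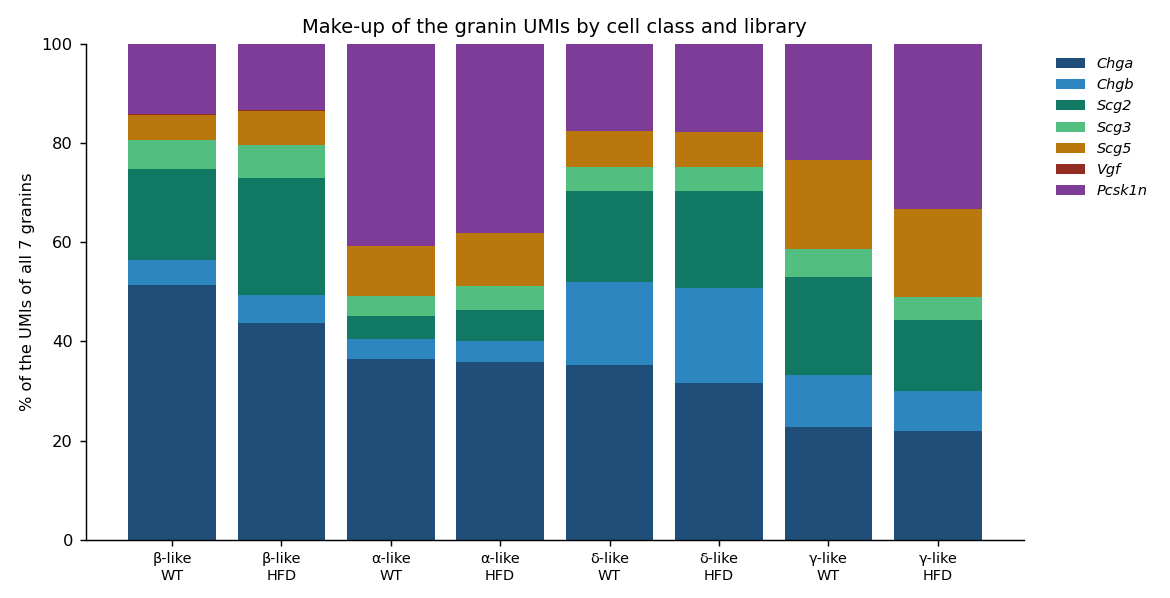
Share of each granin (in % of the UMIs of all 7) in the 4 endocrine classes of each library; the bars start at 0 and sum to 100%. Chga took 51.3% of granin UMIs in WT β-like cells and 43.6% in HFD β-like cells, while Pcsk1n took 40.7% and 38.0% in α-like cells.

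The make-up of the granin UMIs differed between the cell classes. Scg2 took 18.3% (WT) and 23.7% (HFD) of granin UMIs in β-like cells and 4.50% and 6.26% in α-like cells. Chgb took 16.7% and 19.3% in δ-like cells, against 5.15% and 5.65% in β-like cells. In γ-like cells Scg5 took 17.9% and 17.7%, its largest share among the 4 classes.

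RNA from outside the cell, either free in the droplet or from another cell caught in it, was gauged in cells that should lack granins. In endothelial-like cells Chga was at 203.7 (WT) and 189.7 (HFD) and Ins2 was detected as well, with 8.61 and 9.70 Chga UMIs per 1000 Ins2 UMIs. β-like cells had 10.9 and 10.5, and α-like cells 1459 and 577.0. If every Ins2 UMI outside β-like cells had brought granin UMIs in the β-like ratio, this would make up 0.745% (WT) and 1.82% (HFD) of the Chga level of α-like cells and 12.5% and 8.80% of that of δ-like cells. For Scg2 in α-like cells it would be 2.15% and 5.66%.

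The question of the HFD to WT comparison was whether granin transcripts differed between β cells of obese and of lean mice. Vgf was 2.64-fold higher in HFD β-like cells (2.33 to 2.99), and no other member differed by 1.5-fold. Of all 11990 genes tested (at least 50 UMIs over both libraries) 2.52% were 1.5-fold higher in HFD and 9.12% were 1.5-fold lower, against 1 and 0 of the 7 granins. Vgf was at the 99.4th percentile of the ratios of all genes tested.

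The abundant members differed by less, in both directions. Scg5 was 1.27-fold (1.25 to 1.29) and Scg2 1.26-fold (1.25 to 1.27) higher in HFD β-like cells. Scg3 had a ratio of 1.12 (1.10 to 1.13) and Chgb one of 1.07 (1.05 to 1.08). Chga had a ratio of 0.826 (0.822 to 0.831), the lowest of the 7, and Pcsk1n had one of 0.915 (0.906 to 0.924). The median log2 ratio of the 7 members was 0.16, against −0.17 over all genes tested and −0.03 over the genes of at least 100 CPM. With all UMIs in the denominator, genes of at least 100 CPM had a median of 0.20, a shift of all genes with the scaling, and the ratio of Pcsk1n became 1.01.

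**Figure D3:**
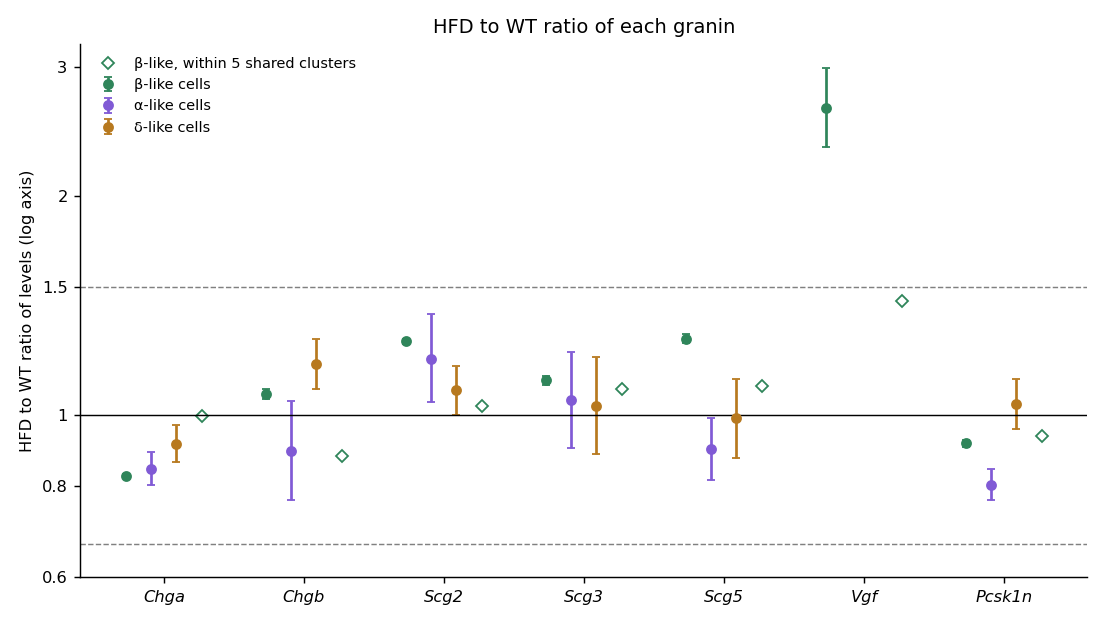
HFD to WT ratio of each granin (log axis) in β-like, α-like and δ-like cells with exact 95% intervals of counting error, where at least 50 UMIs were found over both libraries; open diamonds give the combined ratio within the 5 clusters that both libraries shared, drawn with no interval, and dashed lines mark 1.5-fold. Only Vgf in β-like cells lay past 1.5-fold, at 2.64, and within shared clusters it was at 1.43.

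β-like cells of both libraries lay in largely different clusters. Clusters 0 and 1, led by C2cd4b, Rasd1 and Fos, held 50.1% and 23.5% of WT β-like cells. Clusters 13 and 14, led by Dapl1 and Aldh1a3, held 33.3% and 19.1% of HFD β-like cells but only 1.11% and 0.528% of WT β-like cells. The 5 clusters with at least 20 cells of each library (0, 1, 2, 4 and 5) held 98.2% of WT and 36.2% of HFD β-like cells. A cluster that is mostly of 1 library may be that library and not a cell state.

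Within the 5 shared clusters the differences were smaller. Chga had a combined ratio of 0.997, with 0.901 to 1.08 in the single clusters, and Scg2 one of 1.03, with 0.933 to 1.19. Scg3 was at 1.09, Scg5 at 1.10 and Pcsk1n at 0.936, and they were above 1 in 2, 4 and 2 of 5 clusters. Chgb was at 0.880 and below 1 in 5 of 5 clusters, the opposite side of 1 from its ratio over all β-like cells. Its intervals in clusters 4 (0.737 to 1.05) and 5 (0.931 to 1.05) included 1. Vgf was at 1.43 and above 1 in 5 of 5 clusters, with ratios from 1.06 to 2.12, of which the intervals of all 5 included 1.

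**Figure D4:**
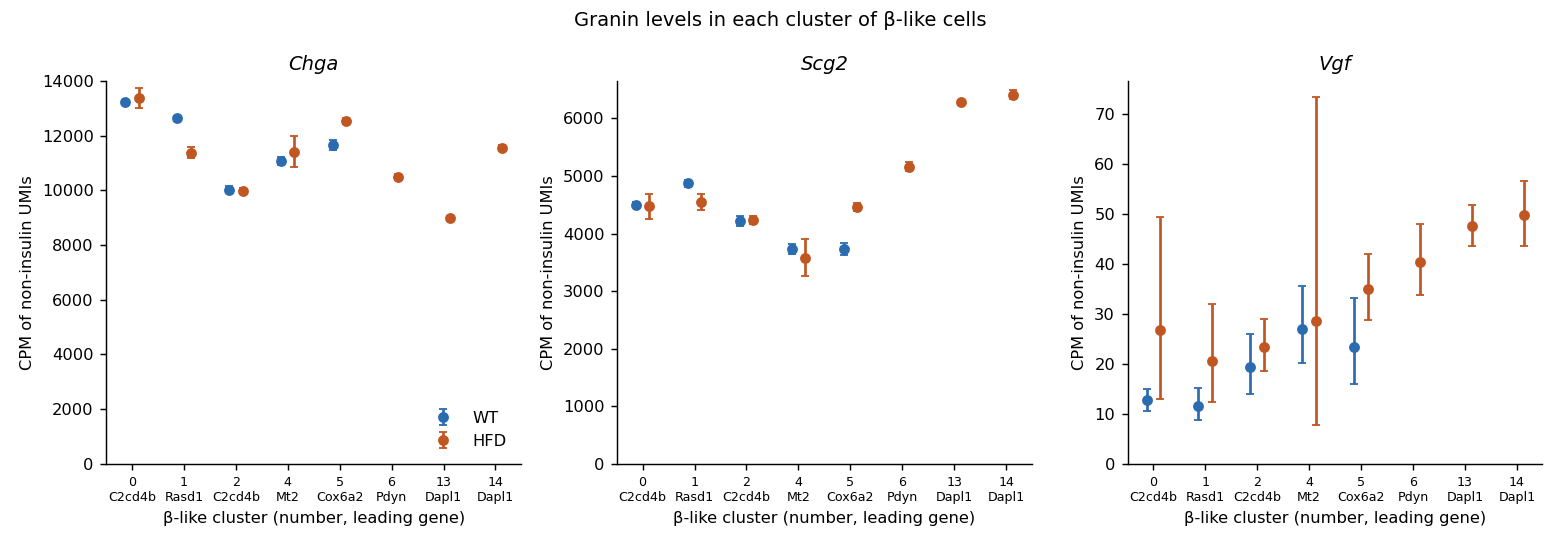
Level of Chga, Scg2 and Vgf (CPM of non-insulin UMIs, axes from 0) in each β-like cluster, named by number and leading gene, in the WT (blue) and HFD (orange) libraries with exact Poisson 95% intervals; clusters 6, 13 and 14 had too few WT cells for a value. Scg2 and Vgf were highest in clusters 13 and 14, and Chga was lowest in cluster 13, at 8976.

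Among the β-like clusters, the 3 that were nearly all HFD cells had the highest Vgf and Scg2 levels. Vgf was at 47.5 in cluster 13, 49.8 in cluster 14 and 40.3 in cluster 6, which Pdyn led, and at 20.4 to 34.9 in the HFD cells of the shared clusters. Scg2 was at 6279, 6417 and 5164 in clusters 13, 14 and 6, against 3570 to 4546 in HFD cells of the shared clusters. Chga did not follow them: it was at 8976 in cluster 13 and 11569 in cluster 14, although Dapl1 and Aldh1a3 led both. Scg5 was at 1770 and 1689, and Chgb at 1459 and 1591, in clusters 13 and 14.

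Unnamed clusters that held insulin UMIs gave a further look at Vgf. Cluster 10, which Rbp4, Sst and Pyy led and which stayed unnamed, held Vgf at 14.3 (10.6 to 18.9) in 178 WT cells and at 35.0 (28.3 to 42.7) in 329 HFD cells. Cluster 3, led by haemoglobin genes, held it at 27.8 (12.7 to 52.8) in 34 WT cells and at 29.5 (24.1 to 35.8) in 825 HFD cells, from 9 and 104 UMIs. The first pair of intervals did not overlap and the second did. Cluster 8, led by Gm26917 and Malat1, stayed unnamed for its few UMIs per cell and held 36.1% insulin UMIs over both libraries together. There Vgf was at 215.5 (123.2 to 349.9) in 41 HFD cells, from 16 UMIs, and 76 WT cells held 0 UMIs. The 2 libraries also differed widely in Chga in this cluster, at 1933 in WT and 20215 in HFD. At clustering resolution 2, a cluster led by the same genes held 75 WT and 0 HFD cells, with only 6.64% insulin UMIs. The WT and HFD cells of cluster 8 may therefore be unlike cells, and its values are not a comparison of insulin-rich cells.

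Since WT cells were deeper, β-like cells were compared within ranges of non-insulin UMIs per cell. From 5000 to 10000 UMIs (548 WT and 2038 HFD cells), Chga was at 13588 in WT and 10250 in HFD, a ratio of 0.754 (0.747 to 0.762). From 10000 to 20000 UMIs (772 and 453 cells) it was at 12675 and 7871, a ratio of 0.621 (0.614 to 0.628). From 2000 to 5000 UMIs, where only 57 WT cells fell, the ratio was 0.878 (0.845 to 0.913), and under 2000 UMIs (96 and 84 cells) it was 0.687 (0.643 to 0.735). The Chga ratio was thus below 1 in all 4 ranges, and from 2000 UMIs up it fell as depth rose. The range of 20000 UMIs and more held 233 WT cells but only 1 HFD cell. Scg2 had ratios of 1.30, 1.26 and 1.31 in the 3 ranges from 2000 to 20000 UMIs, and Scg5 ratios of 1.16, 1.25 and 1.28. Under 2000 UMIs neither was clearly higher in HFD, with 1.01 (0.902 to 1.13) for Scg2 and 0.870 (0.706 to 1.07) for Scg5. In the 3 ranges from 2000 to 20000 UMIs the Scg3 ratio fell from 1.49 through 1.08 to 0.971 (0.944 to 0.998). Chgb was just past 1.5-fold higher from 2000 to 5000 UMIs (1.29 to 1.75), then at 1.05 and 1.01. Under 2000 UMIs Scg3 was at 1.05 (0.847 to 1.29) and Chgb at 0.859 (0.682 to 1.08). The Pcsk1n ratio was below 1 in all 4 ranges, from 0.871 to 0.932.

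Vgf had a ratio of 3.01 (2.32 to 3.97) from 5000 to 10000 UMIs, with levels of 13.8 and 41.6. From 10000 to 20000 UMIs its ratio was 2.79 (2.29 to 3.41), with levels of 16.2 and 45.3. From 2000 to 5000 UMIs the ratio was 1.46 (0.620 to 4.55), with only 5 WT UMIs. Among cells of at most 15000 UMIs in all it was 1.43.

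**Figure D5:**
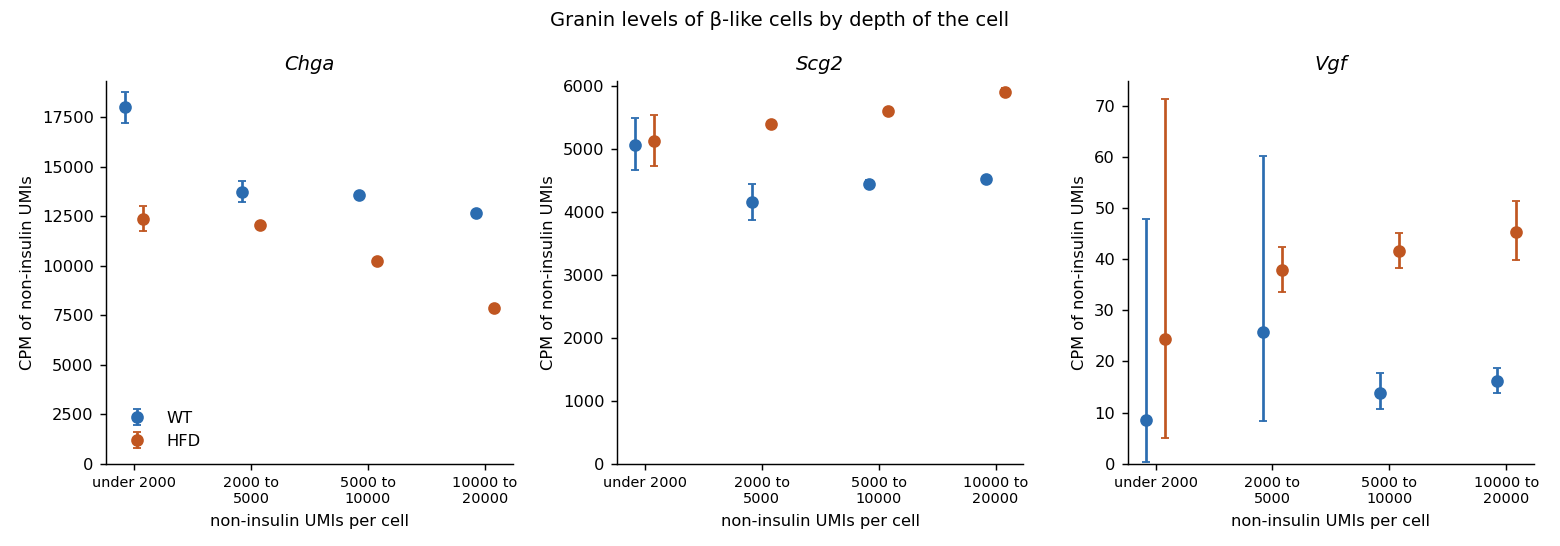
Level of Chga, Scg2 and Vgf (CPM of non-insulin UMIs, axes from 0) in β-like cells by the number of non-insulin UMIs in the cell, in the WT (blue) and HFD (orange) libraries with exact Poisson 95% intervals. Chga was lower in HFD in all 4 ranges shown, and Vgf rested on 1 and 3 UMIs in the range under 2000.

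As a share of cells, Vgf was sparse in both libraries. With each cell thinned to 2000 non-insulin UMIs, a Vgf UMI was found in 3.04% (2.26 to 4.00) of 1610 WT β-like cells and in 7.45% (6.70 to 8.26) of 4495 HFD β-like cells, with 96 and 84 shallower cells left out. In α-like cells it was found in 0 of 48 WT cells and in 4.46% of 157 HFD cells. Among endothelial-like cells 0 of 157 WT cells and 0.893% of 112 HFD cells held one. In β-like cells the variance of the thinned Vgf count was 1.08 times its mean in each library, where counting alone gives 1.

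Markers of other cell types also differed between the β-like cells of both libraries. The summed level of the 8 acinar markers was 409.3 in WT and 970.0 in HFD, that of the 5 erythroid markers 3.06 and 30.1, and that of the 9 fibroblast or stellate markers 27.5 and 3.37. The 10 α markers summed to 2707 and 4574, with 2 of them at 0 in each library, and the 6 B cell markers to 32.6 and 13.9, with 3 at 0 in WT and 0 in HFD. Of the first 3 lists, 0 acinar markers were at 0 in either library, 1 erythroid marker was at 0 in WT, and 1 fibroblast or stellate marker was at 0 in HFD. The 7 δ markers were at 59.2 and 70.1. Their part in the granin ratios was not tested.

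In α-like cells no member that reached 50 UMIs differed by 1.5-fold between libraries (0 of 6, against 15.6% of all 2485 genes tested in either direction). Scg2 had the highest ratio, 1.20 (1.04 to 1.37), which turned to 0.931 at clustering resolution 2, and Pcsk1n the lowest, 0.803 (0.764 to 0.844). Chga had a ratio of 0.844 (0.802 to 0.889), Scg5 0.898, Chgb 0.894 and Scg3 1.05, and the intervals of the last 2 included 1. Different clusters held most of the class in each library: cluster 104 held 28 of 48 WT cells, and clusters 105 and 106 held 81 and 57 of 162 HFD cells.

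In δ-like cells the count was likewise 0 of 6, against 11.5% of all 2258 genes tested. Chgb had the highest ratio, 1.17 (1.09 to 1.27), and Chga the lowest, 0.914 (0.863 to 0.968). Scg2 had a ratio of 1.08, Pcsk1n 1.04, Scg3 1.03 and Scg5 0.990. The cluster led by Sst held 39 of 56 WT cells, and the cluster led by Ghrl, the gene of the hormone ghrelin, and then Sst, held 69 of 123 HFD cells. Without the Ghrl-led cluster the log2 ratio of Chga was 0.14 instead of −0.13, that of Scg2 −0.02 instead of 0.11, and that of Chgb was 0.10 instead of 0.23.

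The γ-like values rested on few cells. Chgb was at 898.8 (794.0 to 1014) in WT and 588.9 (484.4 to 709.2) in HFD, and Scg2 at 1673 (1528 to 1827) and 1066 (924.0 to 1224). Pcsk1n was at 1997 (1839 to 2165) and 2446 (2228 to 2680). The HFD values of Chgb and Scg2 were lower beyond counting error. That of Pcsk1n was higher, but after thinning 1 HFD cell held 18.3% of its UMIs, and the median cell held 5 UMIs in each library.

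Genes that act beside the granins in the granule, a list of 22 prohormone-processing, docking and granule-forming genes, were compared in the same way. In β-like cells 22 of 22 were tested, 0 were 1.5-fold higher, against 2.52% of all genes, and 1 was lower, against 9.12%: Qpct, which encodes an enzyme that modifies peptide ends, had a ratio of 0.518 (0.325 to 0.814) on 51 and 34 UMIs. The median log2 ratio of the list was −0.02. Pcsk1 had a ratio of 0.985 and Pcsk2 one of 0.990. In α-like cells 2 of 13 tested were lower, against 12.5% of all genes: Vamp2 (0.495) and Cadps (0.570), both parts of the exocytosis machinery. In δ-like cells 1 of 14 was lower, against 5.18% of all genes: Rab3a (0.644), a GTPase of granule docking. These 3 genes were named after their values were seen.

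Across single β-like cells the thinned counts of the members had low correlations with each other. After thinning, the coefficient of variation of Chga was 45.2% in WT and 49.98% in HFD, where counting alone would give 19.7% and 21.4%. For Scg2 it was 44.8% and 47.1% against 33.2% and 30.1%, and for Scg3 63.2% and 61.3% against 59.6% and 55.8%. For Chgb it was 77.4% and 81.4% against 63.6% and 61.0%. Scg3 lay close to counting, and Chga, Chgb and Scg2 above it. Over the 21 pairs of members the median Pearson correlation across cells was 0.05 in each library, and the highest was 0.19 in WT (Chga with Pcsk1n, 1610 cells) and 0.18 in HFD (Scg2 with Scg5, 4495 cells). Chga and Scg2 had correlations of −0.01 and −0.07. The median correlation of each member with other genes (220 in WT and 222 in HFD) lay between −0.007 and 0.027. Counting noise lowers the correlations of thinned counts, so low values do not show that the members vary independently. Cells of 1 library share their preparation, and weak correlations in thinned counts describe these cells only.

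The genes most like each member in pattern were sought among 6845 genes over 17 combinations of cell class and library, by the Pearson correlation of log2(level + 10). The combinations of 1 library share its preparation, and the values are descriptions. They include classes that are not endocrine, where granins were near background, so a high r may reflect only that contrast. For Pcsk1n and Scg3 the first gene was Pcsk2, with r = 0.992 and 0.977. For Pcsk1n the next were Fam183b and Myt1l, and for Scg3 Slc7a14 and Kcnk16. Chgb was most like Pax6 (0.983), a transcription factor of islet endocrine cells, followed by Kcnk16 and Bex2. Chga was most like Slc2a5 (0.989), Efcab1 and Fam183b. Scg2 was most like Kcnmb2 (0.976), Mir670hg and Bex2, and Scg5 most like Aplp1 (0.977), Serpina10 and Fam183b. Vgf did not reach the minimum of 50 CPM in any combination.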

How the data were processed

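Raw UMI counts per gene and barcode were used as deposited. Per the study's methods and the submitters' processing notes, these counts came from the authors' run of Cell Ranger 3.0.2 with an mm10 index on libraries of the Single Cell 3′ v3 chemistry. Barcodes were kept with at least 500 genes and at most 20% mitochondrial UMIs, with no maximum of UMIs. The automatic threshold of Scrublet (scanpy 1.11.5) called 1 WT and 0 HFD barcodes and was judged not to have worked, so the highest scores were left out, at 0.8% per 1000 barcodes (3.11% of WT and 7.16% of HFD barcodes).

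Square roots of counts, taken after scaling each cell to 10000 UMIs, were used. The 2000 most variable genes without the members and the main hormone genes, 50 principal components and 15 neighbours fed Leiden clustering at resolution 1 (igraph 0.11.9). Clusters named α, δ or γ were pooled and clustered again. Marker lists were listed in advance, whereas the rule for scoring them was chosen after the clusters had been seen. Reads of the near-identical paralogs Ins1 and Ins2 may be split unevenly by the counting.

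UMIs were summed per class and library. Sums carry exact Poisson, ratios exact conditional and shares exact Clopper-Pearson 95% intervals (scipy 1.17.1), for counting error only. A gene was counted as higher or lower past 1.5-fold, with a minimum of 50 UMIs over both libraries (diet) or a mean level of 100 CPM (classes). A count of 0 was given the limit set by 3 UMIs. Genes named were the 7 members, the partner genes past 1.5-fold in β-like cells with Pcsk1 and Pcsk2, hormone genes and the 3 genes most like each member. Marker genes, genes leading a cluster and the partner genes past 1.5-fold in α-like or δ-like cells are named beside them. The ratio and its interval were tested on simulated data with known folds. Those counts were drawn from the Poisson model that the interval assumes, so they did not test spread between cells. Members and lists were chosen with earlier results of these data known. Gene models were GENCODE vM21, and promoter windows came from RefSeq. The alternatives tried are given in the closing section.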

Additional observations from a re-analysis of the deposited data

How the results depend on the processing

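In β-like cells the median log2 HFD to WT ratio of the 7 granins (0.16) stayed above 0 under all 12 alternatives. It was 0.35 with at most 15000 UMIs per cell, 0.30 with all UMIs as the denominator, 0.21 without hormone and mitochondrial genes, 0.19 after thinning to 2000 UMIs and 0.12 with the highest Scrublet scores kept. Chosen after seeing the data, the ratio within shared clusters gave 0.040 and every cell with at least 30% insulin UMIs gave 0.18. The cause of these shifts was not tested. Vgf stayed past 1.5-fold in 10 of 12 alternatives, the exceptions being at most 15000 UMIs and shared clusters (both 1.43). In α-like cells the median over 6 members (−0.16) ranged from −0.21 to −0.11, and in δ-like cells (0.05) from −0.00 to 0.15.

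With all UMIs as the denominator, which lowers every level in β-like cells, 14 log2 ratios against β-like cells turned from below to above 0. Of these, 9 had been past 1.5-fold: in WT α-like cells Chga (0.062), Chgb (0.22) and Scg3 (0.021), in WT δ-like cells Chga (0.056), Scg2 (0.60) and Scg3 (0.33), and in HFD δ-like cells Chga (0.11), Scg2 (0.28) and Scg3 (0.12). The other 5 were Scg5 in HFD α-like (0.87), WT δ-like (1.10) and HFD δ-like cells (0.64), and Pcsk1n in δ-like cells (0.90 and 0.99). Scg2 stayed lower in α-like cells, Pcsk1n higher in α-like cells and Chgb higher in δ-like cells under all 10 alternatives. Scg2 in WT δ-like cells (−0.66) was under 1.5-fold with at most 15000 UMIs (−0.54), as a mean over cells (−0.52), after thinning (−0.51) and without hormone and mitochondrial genes (−0.35). In δ-like cells the HFD to WT log2 ratio of Chga (−0.13) was above 0 with at most 15000 UMIs (0.13), after thinning (0.11) and with the highest Scrublet scores kept (0.23).

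No paired analysis was possible because each group held 1 library and no test was run. Depth limited Vgf in α-like, δ-like and γ-like cells, where 19 UMIs or fewer were found over both libraries.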
